A study of Mus musculus with 75 samples.

Results

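The genes described here are 10 members of the mechanotransduction channel complex of hair cells (HCs) and its close partners: Tmc1, Tmc2, Tmie, Lhfpl5, Cib2, Cib3, Tomt, Loxhd1, Pkhd1l1 and Piezo2. They were chosen by name, as the rows of these genes among the 55291 genes of a raw count table, and all 10 were found there. The table holds 75 mouse cochlear cells (C57BL/6), each picked by hand and amplified with a Smart-Seq kit, which makes full-length cDNA. The 17 outer hair cells (WT_P30 OHCs) came from Slc26a5 CreER/+; Ai9/+ mice given tamoxifen at P20 and P21 and collected at P30, where Tdtomato marks cells in which the Slc26a5 (Prestin) locus drives Cre. The 16 supporting cells (WT_P60 SCs) came from Fgfr3-iCreER+; Ai9/+ mice given tamoxifen at P30 and P31 and collected at P60, in which Cre acts mainly in pillar cells and Deiters' cells. The other 42 cells were Tdtomato+ cells at P60 of Fgfr3-iCreER+ mice that carried Slc26a5 DTR/+ together with Rosa26 CAG-LSL-Ikzf2/+ and CAG-LSL-Atoh1+. In all of these, tamoxifen at P30 and P31 switched on both transgenes in Fgfr3-Cre cells, and a dose of diphtheria toxin (20 ng/g) at P36 damaged the endogenous OHCs, whose receptor for the toxin is made from the Slc26a5 locus. A few endogenous OHCs survive this treatment. The authors divided the 42 induced cells into 15 SCs failing to become HCs, 16 nascent HCs and 11 OHC-like cells by the Myo7a and Prestin transcripts of the same libraries, so these groups were defined from the data. The question put to the data was which parts of the transduction apparatus were present in the induced cells at the levels of OHCs and which were not.

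Hair cells convert sound to current at the tips of the stereocilia, where a tip link pulls on an ion channel. TMC1 and TMC2 form the pore, with TMC2 used early in development and TMC1 in mature cochlear HCs. TMIE and LHFPL5 are membrane proteins that sit with the pore and the lower end of the tip link, CIB2 and CIB3 are calcium and integrin binding proteins that bind TMC proteins, and TOMT is needed for TMC proteins to travel to the bundle. LOXHD1 is a PLAT-domain protein of the stereocilia that mature transduction requires, PKHD1L1 belongs to the coat of the stereocilia, and PIEZO2 carries the reverse-polarity current of immature or damaged HCs.

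A pair of promoters is printed for orientation, because Tmc1 was near 0 in most induced HCs while Lhfpl5 lay in the range of OHCs in 8 of 11 OHC-like cells and 7 of 16 nascent HCs. The bases before the gene start are from RefSeq (GRCm38.p6), read 5′ to 3′ on the strand of the gene. Capitals mark CAGCTG, a form of the E-box that factors of the family of Atoh1 can bind, and Tmc1 has none. The Tmc1 stretch is chr19:20954203-20954452 (minus strand), and the Lhfpl5 stretch is chr17:28575469-28575640 (plus strand).
Tmc1: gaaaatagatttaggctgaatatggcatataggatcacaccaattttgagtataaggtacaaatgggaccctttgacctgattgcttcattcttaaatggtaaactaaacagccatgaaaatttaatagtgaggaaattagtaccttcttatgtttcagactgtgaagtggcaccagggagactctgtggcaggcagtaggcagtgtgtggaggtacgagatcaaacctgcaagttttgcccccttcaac
Lhfpl5: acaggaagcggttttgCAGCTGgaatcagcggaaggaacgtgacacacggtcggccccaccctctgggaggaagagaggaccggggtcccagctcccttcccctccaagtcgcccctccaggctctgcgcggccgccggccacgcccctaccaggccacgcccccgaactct
In Lhfpl5 the CAGCTG began 234 bases before the RefSeq start. CAGCTG and CAGATG (either strand) were searched in the 250 bases before each start, and of 32851 promoters of the annotation 13.0% held CAGCTG and 14.4% CAGATG. Of the 6 members with a RefSeq promoter entry, Tmie held CAGCTG 206 bases before its start, in sequence shared with an exon of Als2cl, and Cib2 held neither. Tomt had an entry with neither and a second entry with CAGCTG 82 bases before its start, and Cib3 held both, though the gene start in that entry is uncertain. A match is a description of letters only, and these motifs were chosen after the values were seen.

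Levels are counts scaled to 1000000 gene counts per cell (CPM), and a gene was called detected in a cell at 1 CPM or more. The labels name no animals, so cells of a group cannot be assigned to mice. Each group was therefore treated as 1 sample, no test between groups was made, and mean ± SD describes the spread over cells. Brackets with shares hold exact 95% binomial intervals (Clopper-Pearson). Because cells may share mice, these intervals and the limits given for 0 cells cover counting error over cells only. The limits for 0 cells are 3 divided by the number of cells, an approximation that lies below the exact limit. Reads without molecular identifiers are not independent molecules. Total counts ran from 4264780 to 22934062 per cell, and the medians of the 5 groups for genes detected from 4777 in WT_P30 OHCs to 8488 in OHC-like cells. OHC-like cell 4 had 3348 genes detected, and 3 induced cells had fewer than 5000. Where no cell of a group held more than 3 counts of a gene, or its mean was below that of 3 counts per cell, the group was set to 3 counts per cell and the fold is given as a bound. No ratio is given where the other group did not exceed that level. The cells were divided into 7 library runs, each a span of library numbers. The sample titles name no run, so these runs need not be batches of preparation. All WT_P30 OHCs were in one and all WT_P60 SCs in another, so run and group cannot be told apart for the wild-type cells.

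The labels of the groups were set against marker genes. Slc26a5 was detected in 17 of 17 WT_P30 OHCs (median 1855 CPM), in 11 of 11 OHC-like cells (median 56.2 CPM), in 3 of 16 nascent HCs and in 0 of the 16 WT_P60 SCs. The summed level of 8 SC markers had a median of 6343 CPM in WT_P60 SCs, 314 CPM in OHC-like cells, 397 CPM in nascent HCs, 1775 CPM in SCs failing to become HCs and 0 in WT_P30 OHCs. Inner hair cell markers (3 genes, summed) reached 1.60 CPM in OHC-like cells and 78.2 CPM in nascent HCs. In WT_P30 OHCs their sum had a median of 444 and a highest value of 1424 CPM, which was mostly Otof. Otof was detected in 14 of 17 WT_P30 OHCs (median 443 CPM), but Slc17a8 in only 2 of 17 and Slc7a14 in 0 of 17. Macrophage markers were at 0 in all induced cells. The 4 hemoglobin genes reached 2565 CPM in 1 OHC-like cell. OHC-like cell 11 stood apart: it held the highest level in its group of Tmc1, Tmc2, Tmie, Lhfpl5, Cib2 and Tomt, and results that rest on it are given without it.

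In wild-type cells 6 of the 10 members were detected in most OHCs. Tmc1, Lhfpl5, Cib2, Loxhd1 and Tomt were detected in 17 of 17 WT_P30 OHCs, and Tmie in 15 of 17. Per kb of exon, Cib2 had the highest mean level in WT_P30 OHCs (2860 CPM per kb), followed by Lhfpl5 (897), Tmc1 (197), Loxhd1 (75.5), Tmie (53.5) and Tomt (30.8). Pkhd1l1, Tmc2, Cib3 and Piezo2 were at or below 0.738 CPM per kb in these OHCs. In WT_P60 SCs Cib2 was highest (78.1 CPM per kb) and the other 9 members were at or below 2.17. Comparing genes with a mean of at least 5 CPM in a group (14219 genes, 8 of the 10 members), 7 of the 8 were more than 4-fold higher in WT_P30 OHCs than in WT_P60 SCs and none was lower, against 17.4% and 21.5% of all tested genes. The call of Pkhd1l1, 1 of the 7, rested on the 2 of 17 OHCs in which it was detected. Pkhd1l1 reached the minimum of 5 CPM in WT_P30 OHCs only (mean 13.7 CPM), so the filter set the direction of this call. In 4 of the 8 (Tmc1, Lhfpl5, Cib2 and Loxhd1) every OHC lay above every SC, against 0.907% of all tested genes (1.45% in the lower direction). Tmc2 and Piezo2 did not reach the minimum of 5 CPM and stay out of these counts.

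**Figure D1:**
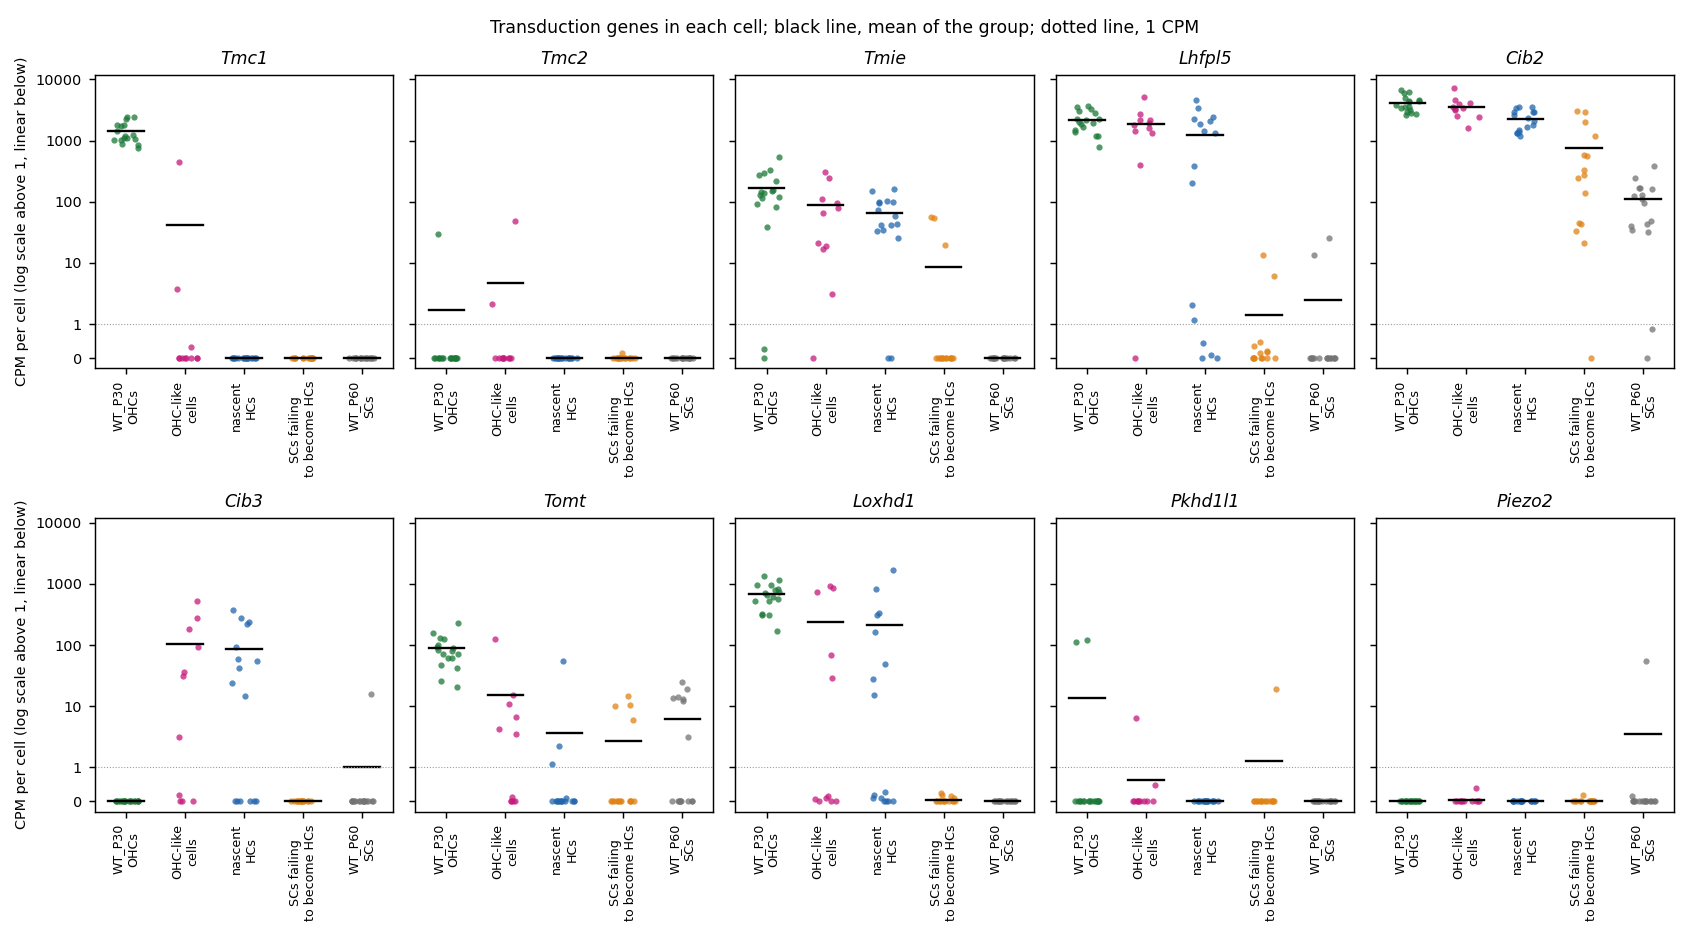
Level of each of the 10 members in each of the 75 cells, in CPM on a log axis, by group. Each point is 1 cell and each black line the mean of the group, with a scale that is linear below 1 CPM. Tmc1 separated the 17 WT_P30 OHCs, all at 747 CPM or more, from 25 of the 27 induced HCs, which were below 1 CPM, while Lhfpl5 lay within the range of WT_P30 OHCs in 8 of 11 OHC-like cells and 7 of 16 nascent HCs.

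Tmc1, the pore subunit of mature HCs (chromosome 19: 20783458-20954202, minus strand), was the 1 member whose cells did not overlap between induced and wild-type HCs. In WT_P30 OHCs it ran from 747 CPM through a median of 1208 to 2463 CPM, with a mean of 1419 ± 558 (SD, n = 17 cells). Of the 11 OHC-like cells, 2 held it at 1 CPM or more (18.2%, 2.28 to 51.8). OHC-like cell 11 had 447 CPM, from 4116 reads, and OHC-like cell 2 had 3.69 CPM. The other 9 OHC-like cells were below 1 CPM, and in 8 of them Tmc1 was at 0 counts. No read of Tmc1 was counted in the 16 nascent HCs, the 15 SCs failing to become HCs or the 16 WT_P60 SCs, which allows shares of up to 18.8%, 20.0% and 18.8% of cells. The highest OHC-like cell lay below the lowest WT_P30 OHC. The mean of OHC-like cells (41.0 CPM) was 34.6-fold lower than that of WT_P30 OHCs, and the nascent HCs were at least 5249-fold lower. The mean of the OHC-like cells rested on cell 11: the other 10 cells had a mean of 0.400 CPM, and without it the log2 ratio to WT_P30 OHCs was -11.79 instead of -5.11.

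Tmc2, the pore subunit of immature HCs (chromosome 2: 130195194-130264445, plus strand), was detected in 3 of all 75 cells. It reached 48.5 CPM in OHC-like cell 11 and 2.16 CPM in OHC-like cell 2, the same cells in which Tmc1 was detected. In WT_P30 OHCs it was detected in cell 17 alone, at 29.2 CPM. That OHC also held 110 CPM of Slc17a8, which encodes the vesicular glutamate transporter that marks inner hair cells, beside 1855 CPM of Slc26a5, the median of its group. In the 25 induced HCs with Tmc1 below 1 CPM, Tmc2 was at 0 counts.

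Tmie, the small membrane protein that couples pore and tip link (chromosome 9: 110865711-110880113, minus strand), was present in most induced HCs. It reached 1 CPM in 10 of 11 OHC-like cells (90.9%, 58.7 to 99.8) and in 14 of 16 nascent HCs (87.5%, 61.7 to 98.4). Its level ran from 0 through a median of 64.8 to 308 CPM in OHC-like cells and from 0 through 50.9 to 160 CPM in nascent HCs. WT_P30 OHCs ran from 0 through 141 to 530 CPM, so all 3 groups overlapped. The mean of OHC-like cells (87.3 ± 101 CPM, n = 11) was 1.90-fold lower, and that of nascent HCs (66.2 ± 47.8 CPM, n = 16) 2.50-fold lower, than that of WT_P30 OHCs (166 ± 133 CPM, n = 17). No read of Tmie was counted in the 16 WT_P60 SCs, and the mean of OHC-like cells was at least 203-fold above them. In SCs failing to become HCs Tmie was detected in 3 of 15 cells, at up to 56.4 CPM, and their mean was at least 20.2-fold above WT_P60 SCs, with a log2 ratio of 4.34 that fell to 3.62 without the highest of the 3. Tmie shares 244 exon bases with Als2cl on the opposite strand, whose mean was 16.4 CPM in WT_P30 OHCs, 0 in WT_P60 SCs and 8.29 CPM in OHC-like cells, 14.0 CPM in nascent HCs and 19.2 CPM in SCs failing to become HCs. Whether the counting used strand is not stated, and without strand the reads of such partners cannot be told apart.

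Lhfpl5, which encodes the tetraspan partner of the tip link protein PCDH15 (chromosome 17: 28575641-28585679, plus strand), ran in the induced HCs from 0 to above the highest OHC. It ran from 774 through a median of 1996 to 3719 CPM in WT_P30 OHCs. In OHC-like cells it ran from 0 through 1829 to 5242 CPM with OHC-like cell 1 at 0 and the other 10 at 402 CPM or more. In nascent HCs it ran from 0 through 854 to 4593 CPM, with 10 of the 16 cells at 202 CPM or more and the other 6 at 2.05 CPM or less, 12 counting as detected. The means were 2141 ± 859 CPM (n = 17), 1895 ± 1362 CPM (n = 11) and 1249 ± 1429 CPM (n = 16), which put OHC-like cells 1.13-fold and nascent HCs 1.71-fold below WT_P30 OHCs, within the spread over cells. The highest level in any SC failing to become an HC was 13.3 CPM and in any WT_P60 SC 25.5 CPM, below every OHC-like cell except OHC-like cell 1, in which Lhfpl5 was at 0. Against WT_P60 SCs (mean 2.45 CPM) OHC-like cells were 773-fold and nascent HCs 509-fold higher. Without WT_P60 SC 14, which held the 25.5 CPM, these log2 ratios rose from 9.59 to 11.02 and from 8.99 to 10.42. The mean of SCs failing to become HCs was 1.39 CPM, within 4-fold of WT_P60 SCs, but the log2 ratio fell from -0.82 to -2.19 without the 1 cell at 13.3 CPM.

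Cib2, a calcium and integrin binding protein that binds TMC1 (chromosome 9: 54544794-54560218, minus strand), was the only member detected in every OHC-like cell and nascent HC. It ran from 2654 through 3857 to 6613 CPM in WT_P30 OHCs, from 1591 through 3408 to 7104 CPM in OHC-like cells, and from 1173 through 2187 to 3507 CPM in nascent HCs. It was also the member that stood highest in the SCs failing to become HCs, with 0 through 272 to 3020 CPM. WT_P60 SCs ran from 0 through 102 to 388 CPM, so every OHC-like cell and every nascent HC lay above every WT_P60 SC. Below the lowest WT_P30 OHC lay 3 of the 11 OHC-like cells and 10 of the 16 nascent HCs. The means ordered WT_P30 OHCs (4099 ± 1217 CPM), OHC-like cells (3594 ± 1436), nascent HCs (2279 ± 857), SCs failing to become HCs (759 ± 1044) and WT_P60 SCs (112 ± 102). In that order each neighbouring pair of groups overlapped. Relative to WT_P60 SCs these means were 36.6-, 32.1-, 20.4- and 6.78-fold higher. Cib2 shares 227 exon bases with Sh2d7 on the opposite strand, whose mean stayed at or below 4.54 CPM in all groups.

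Cib3, the closest relative of Cib2 in the inner ear (chromosome 8: 72204335-72212837, minus strand), showed the reverse of Tmc1. No read of it was counted in the 17 WT_P30 OHCs, which allows a share of up to 17.6% of cells, or in the 15 SCs failing to become HCs. In WT_P60 SCs it was detected in 1 of 16 cells, at 16.0 CPM. In OHC-like cells 7 of 11 reached 1 CPM (63.6%, 30.8 to 89.1), from 0 through a median of 30.9 to 516 CPM, and in nascent HCs in 10 of 16 cells (62.5%, 35.4 to 84.8), from 0 through 33.3 to 372 CPM. The means of 104 ± 165 CPM and 86.8 ± 120 CPM were at least 211-fold and at least 176-fold above WT_P30 OHCs. Without OHC-like cell 10, the highest, the other OHC-like cells had a mean of 63.0 CPM. Since 4 OHC-like cells and 6 nascent HCs were below 1 CPM, the groups still overlapped with WT_P30 OHCs. Per kb of exon, Cib3 in induced HCs (51.7 CPM per kb in OHC-like cells, 43.1 in nascent HCs) stayed far below Cib2 in the same cells (2508 and 1590 CPM per kb).

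**Figure D2:**
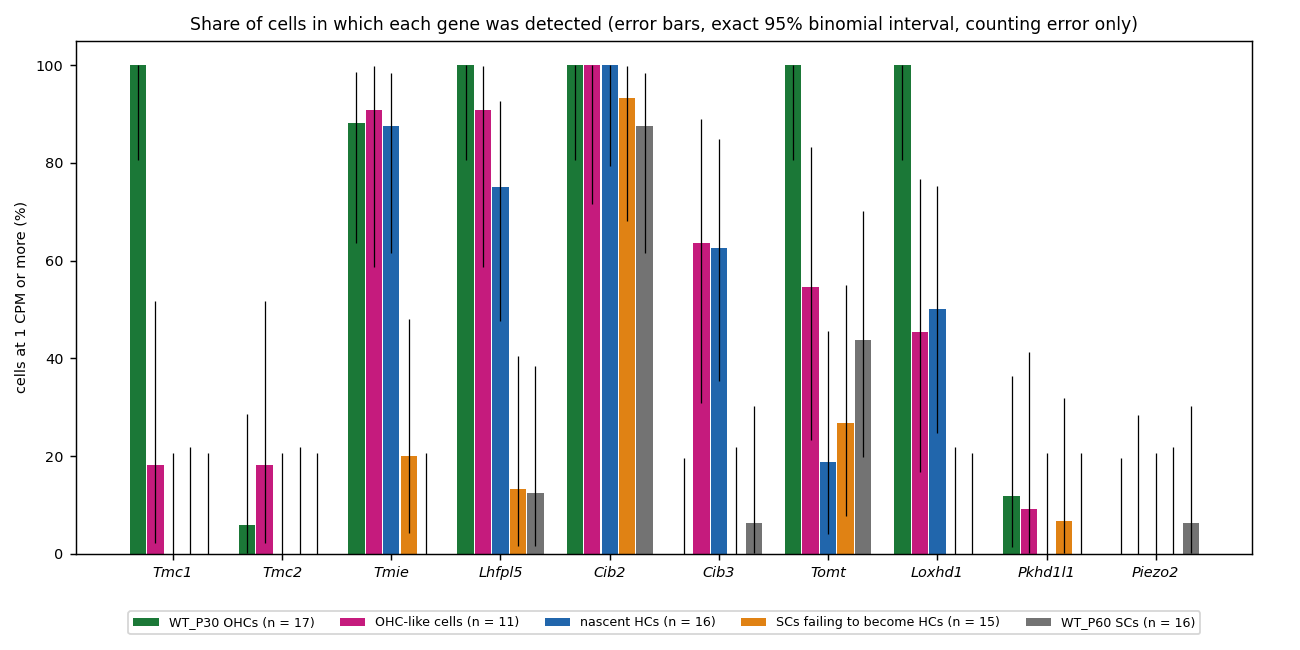
Share of cells (percent) in which each of the 10 members was detected at 1 CPM or more, by group, with exact 95% binomial intervals. Cib2, Tmie and Lhfpl5 reached at least 75.0% in OHC-like cells and nascent HCs, Tmc1 18.2% and 0%, and Cib3 was detected in 63.6% and 62.5% of the induced HCs but in 0% of WT_P30 OHCs.

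Tomt, a transmembrane O-methyltransferase that TMC proteins need to reach the bundle (chromosome 7: 101898370-101906359, minus strand), was low in the induced cells together with Tmc1. It ran from 20.9 through 79.6 to 231 CPM in WT_P30 OHCs, from 0 through 3.51 to 125 CPM in OHC-like cells and from 0 through 0 to 55.1 CPM in nascent HCs. The mean of OHC-like cells (15.1 ± 36.9 CPM, n = 11) was 5.81-fold lower, and that of nascent HCs (3.66 ± 13.7 CPM, n = 16) 24.0-fold lower, than that of WT_P30 OHCs (87.9 ± 51.8 CPM, n = 17). Both means rested on 1 cell. Without OHC-like cell 11 the other OHC-like cells had a mean of 4.09 CPM and a highest value of 15.5 CPM, and without nascent HC 2 the other nascent HCs had a mean of 0.233 CPM, which is more than 4-fold below WT_P60 SCs. Tomt was also detected in 7 of 16 WT_P60 SCs (mean 6.21 CPM, highest 24.6 CPM), so neither group of induced HCs was more than 4-fold from WT_P60 SCs. Of the 2857 exon bases of Tomt, 1981 are shared with Anapc15 on the opposite strand, whose mean was 2.92 CPM in WT_P30 OHCs, 8.29 CPM in WT_P60 SCs, 6.16 CPM in OHC-like cells, 4.52 CPM in nascent HCs and 0.559 CPM in SCs failing to become HCs. Low levels of Tomt are therefore uncertain. In WT_P30 OHCs the mean of Tomt lay above that of Anapc15. By cell the ranges overlapped, with Anapc15 at up to 36.6 CPM and Tomt from 20.9 CPM.

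Loxhd1 (chromosome 18, plus strand) split the induced HCs. It ran from 170 through 650 to 1346 CPM in WT_P30 OHCs and reached 1 CPM in 5 of 11 OHC-like cells (45.5%, 16.7 to 76.6) and 8 of 16 nascent HCs (50.0%, 24.7 to 75.3). In the OHC-like cells in which it was detected, Loxhd1 ran from 29.1 through a median of 726 to 932 CPM, with 3 of the 5 within the range of WT_P30 OHCs and the other 2 below it. In the nascent HCs in which it was detected it ran from 15.4 through 236 to 1657 CPM. The remaining 14 induced HCs were below 1 CPM, and no SC of either kind reached 1 CPM. The means of OHC-like cells (238 ± 391 CPM) and nascent HCs (212 ± 444 CPM) were 2.82-fold and 3.17-fold below WT_P30 OHCs (671 ± 317 CPM). Without nascent HC 1, the highest at 1657 CPM, the other nascent HCs had a mean of 115 CPM and were more than 4-fold below WT_P30 OHCs.

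Pkhd1l1 and Piezo2 were below 1 CPM in most cells of every group. Pkhd1l1 (chromosome 15: 44457494-44601369, plus strand) was detected in 2 of 17 WT_P30 OHCs, at 112 and 121 CPM in cells 8 and 17, in OHC-like cell 2 at 6.36 CPM and in 1 SC failing to become an HC at 19.1 CPM. It was at 0 counts in all nascent HCs and WT_P60 SCs. Piezo2 (chromosome 18, minus strand) was detected in 1 cell of the series, a WT_P60 SC at 55.4 CPM. In the 27 induced HCs it was detected in 0 cells, which allows a share of up to 11.1%.

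**Figure D3:**
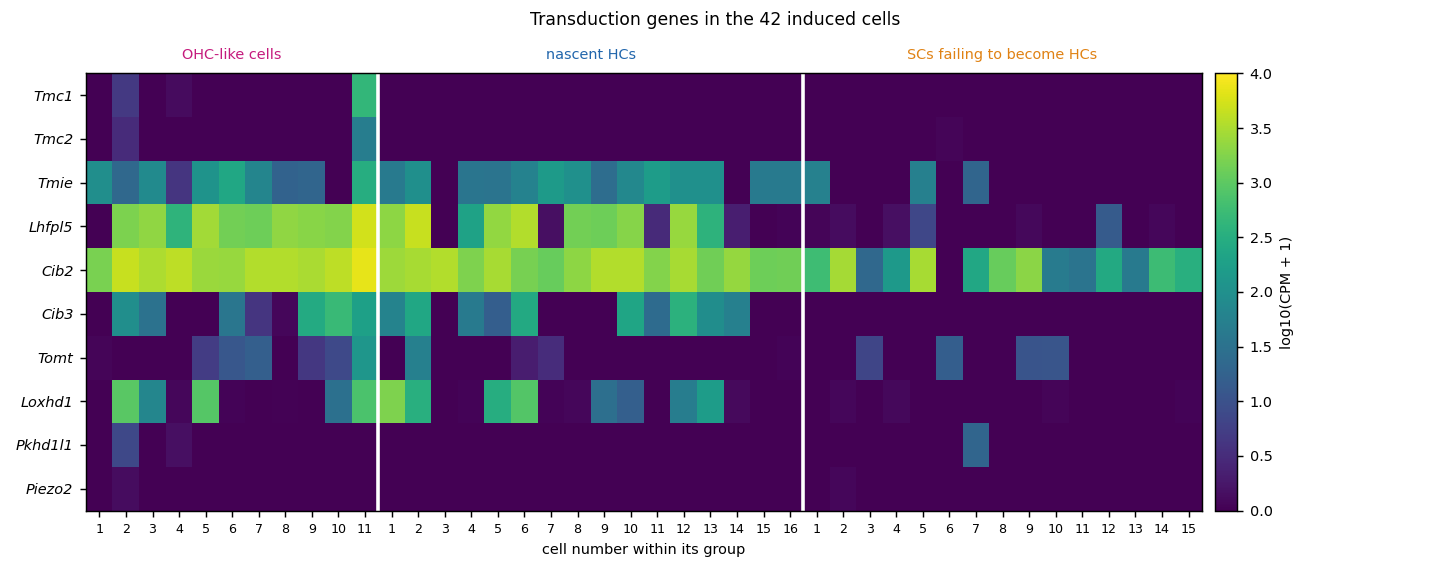
Level of the 10 members in each of the 42 induced cells, as log10(CPM + 1) in color, with 1 column per cell ordered by group and cell number. Cib2 was detected in all 27 induced HCs, Lhfpl5 in 22, Tmie in 24, Cib3 in 17, Loxhd1 in 13 and Tmc1 in 2.

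The comparisons between groups, 9 in all, share groups of cells with each other, so their values are given side by side and are not independent. Against WT_P60 SCs, 6 of the 8 members were more than 4-fold higher in OHC-like cells (Tmc1, Tmie, Lhfpl5, Cib2, Cib3 and Loxhd1) and 5 in nascent HCs (the same without Tmc1), and none was lower in either. Of all tested genes 18.7% were higher in each comparison, and 14.4% and 13.0% were lower. Cib3 reached the minimum of 5 CPM only in OHC-like cells and nascent HCs, so the filter set the direction of its calls against the other groups. Cib2 was the 1 member whose cells did not overlap, against 0.633% and 0.464% of tested genes (0.795% and 0.774% lower without overlap). Without OHC-like cell 11, the mean of Tmc1 in the other OHC-like cells (0.400 CPM) did not exceed the level of 3 counts per cell in WT_P60 SCs (0.430 CPM), so Tmc1 had no ratio and the count became 5. In SCs failing to become HCs 2 members (Tmie and Cib2) were higher than in WT_P60 SCs and none was lower, against 18.0% and 10.5% of tested genes, a share of members close to the background, and none was without overlap (0.0281% higher and 0.429% lower over all genes).

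Against WT_P30 OHCs, the same 3 members (Tmc1, Tomt and Pkhd1l1) were more than 4-fold lower in OHC-like cells and in nascent HCs, and 1, Cib3, was higher in both. Of all tested genes 13.3% and 13.2% were lower and 22.1% and 23.1% higher. Tmc1 was the 1 member without overlap, against 0.309% and 0.408% of genes that were lower without overlap (0.506% higher without overlap in each). The Pkhd1l1 call rested on the 2 OHCs in which the gene was detected. Pkhd1l1 passed the filter on low counts through WT_P30 OHCs only and Cib3 through the induced HCs only, so the direction of their calls was set by the filter. Tmie, Lhfpl5, Cib2 and Loxhd1 were within 4-fold of OHCs in both. The median log2 ratio of all tested genes was 0.31 and 0.33 in these comparisons, and against WT_P60 SCs 0.19 for OHC-like cells, 0.24 for nascent HCs and 0.23 for SCs failing to become HCs, so ratios near 1 are to be read against that shift. The log2 ratios of Lhfpl5 (-0.18) and Cib2 (-0.19) in OHC-like cells against WT_P30 OHCs were -0.48 and -0.49 with that median subtracted.

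Between OHC-like cells and nascent HCs, 2 of the 8 members were more than 4-fold higher in OHC-like cells (Tmc1 and Tomt), none was lower, and no tested gene was without overlap (0.0%), against 6.2% higher and 8.12% lower of all tested genes. Both calls ended without OHC-like cell 11, and Tomt, at 4.13-fold, stood at the limit. Tmie, Lhfpl5, Cib2, Cib3 and Loxhd1 differed by 1.58-fold or less in their means. Against SCs failing to become HCs, 7 members were higher in OHC-like cells (12.4% of all tested genes) and none lower (15.2%), with none free of overlap (0.0563%). In nascent HCs 4 were higher (Tmie, Lhfpl5, Cib3 and Loxhd1; 11.2%) and 1, Pkhd1l1, was lower (12.5%), the last through a single SC failing to become an HC, and none was free of overlap (0.0141%). Without OHC-like cell 11, 5 members remained higher than in SCs failing to become HCs. Lhfpl5 was 1366-fold higher in OHC-like cells and 901-fold in nascent HCs, and without the 1 SC failing to become an HC at 13.3 CPM 3527-fold and 2325-fold.

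**Figure D4:**
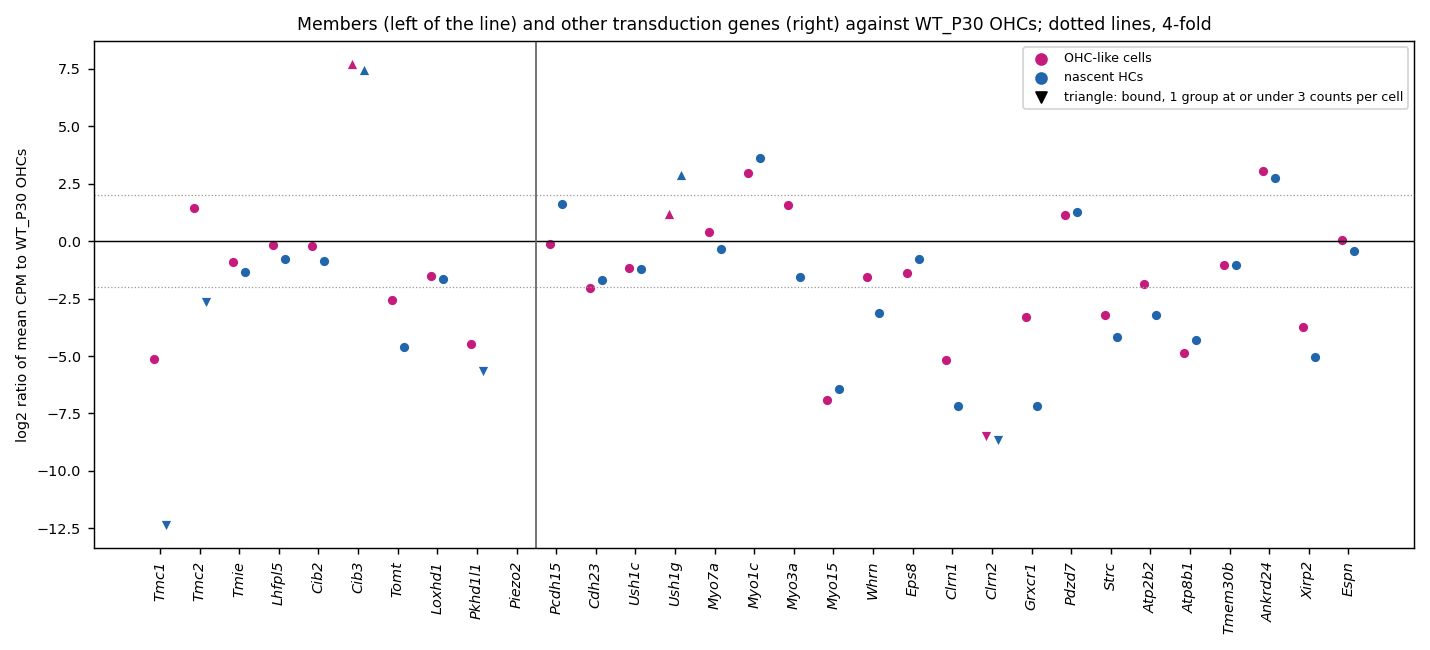
log2 ratio of the mean CPM of OHC-like cells and of nascent HCs to that of WT_P30 OHCs for the members (left of the vertical line) and the 21 other transduction genes (right). Triangles are bounds, where one of the groups was at or under 3 counts per cell, and dotted lines mark 4-fold. Lhfpl5 and Cib2 lay between 0 and -1, Tmc1 at -5.11 and at most -12.36, and Cib3 at no less than 7.72 and 7.46.

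Within single cells, the partners of the pore occurred together without the pore. Tmc1, Tmie, Lhfpl5 and Cib2 were all detected in 15 of 17 WT_P30 OHCs (88.2%, 63.6 to 98.5) and in 2 of 11 OHC-like cells (18.2%, 2.28 to 51.8), but in 0 of 16 nascent HCs (a share of up to 18.8%). Tmie, Lhfpl5 and Cib2 were all detected in 9 of 11 OHC-like cells (81.8%, 48.2 to 97.7), 11 of 16 nascent HCs (68.8%, 41.3 to 89.0) and 1 of 15 SCs failing to become HCs (6.67%, 0.169 to 31.9). Of the 27 induced HCs, 18 (66.7%, 46.0 to 83.5) held these 3 partners with neither Tmc1 nor Tmc2, and 0 of the 17 WT_P30 OHCs did. The median number of members detected per cell was 6 in WT_P30 OHCs, 5 in OHC-like cells, 4 in nascent HCs and 1 in SCs failing to become HCs and in WT_P60 SCs. OHC-like cells 2 and 11 each held 8 of the 10.

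Among the members, Cib3 and Loxhd1 were found within the cells that held Lhfpl5. All 17 induced HCs with Cib3 and all 13 with Loxhd1 also had Lhfpl5, and 11 held both Cib3 and Loxhd1. In 2 of the nascent HCs with Cib3, Lhfpl5 was at 1.18 and 2.05 CPM only. Over the 27 induced HCs the Spearman correlation of Lhfpl5 and Cib3 was 0.564, with 0.294 in the 11 OHC-like cells and 0.73 in the 16 nascent HCs. Tmie and Cib2 gave -0.359 over the same 27 cells. These are descriptions across cells that share library runs and differ in depth.

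**Figure D5:**
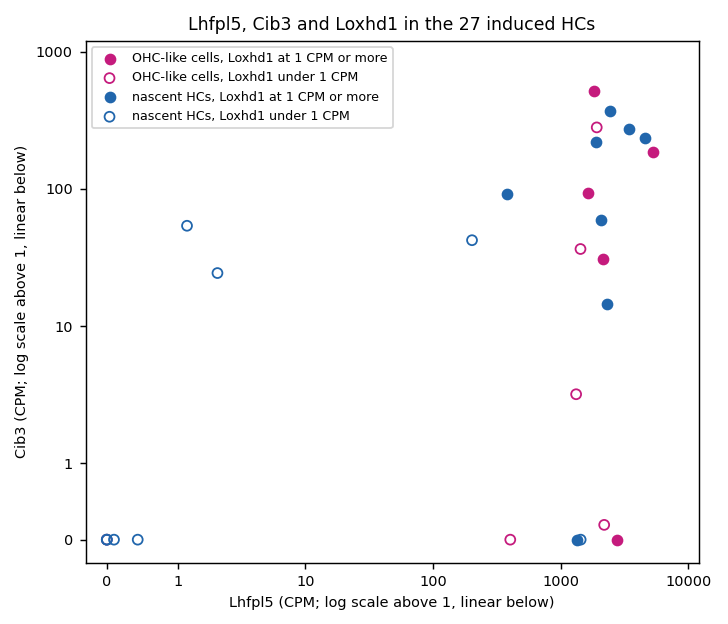
Level of Cib3 against Lhfpl5 in the 27 induced HCs, both in CPM on log axes that are linear below 1 CPM, with 1 point per cell, filled where Loxhd1 was at 1 CPM or more. The 17 cells with Cib3 lay among those with Lhfpl5, and no cell with Cib3 lacked Lhfpl5.

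Library runs A, B, D and E held both groups of induced HCs. In run B, the largest, Tmc1 reached 3.69 CPM in 1 of 5 OHC-like cells and was at 0 in all 6 nascent HCs. Lhfpl5 had means of 1671 and 1564 CPM and Cib2 of 3349 and 2001 CPM in those cells. In run D, Lhfpl5 had means of 1807 CPM in 3 OHC-like cells and 1171 CPM in 4 nascent HCs, and Cib3 of 94.6 and 177 CPM. Run E held OHC-like cell 11 and nascent HC 2. In run A the 1 OHC-like cell and the 1 nascent HC both lacked Lhfpl5, Cib3, Loxhd1 and Tmc1. SCs failing to become HCs were mostly in run C (10 of 15), which held 1 nascent HC, with 1330 CPM of Lhfpl5 against 13.3 CPM or less in the 10 other cells.

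Of 21 other genes of the hair bundle's transduction machinery (tip link proteins and their anchors, unconventional myosins, actin regulators, pumps and lipid flippases), 20 reached 5 CPM in a group. Against WT_P60 SCs, 15 were more than 4-fold higher and 1 lower in WT_P30 OHCs, 14 higher and 1 lower in OHC-like cells, and 14 higher and none lower in nascent HCs. Of all tested genes 17.4%, 18.7% and 18.7% were higher and 21.5%, 14.4% and 13.0% lower. Without OHC-like cell 11 the count in OHC-like cells was 10 higher and 1 lower, and without nascent HC 2 that in nascent HCs was 11 higher and 1 lower. The largest ratios in OHC-like cells were those of Myo7a (at least 1849-fold), the bundle myosin by which the groups had been defined, and Espn (at least 1688-fold), an actin bundler. Myo3a, a myosin of the stereocilia tips, was at least 262-fold higher, with 5 of 11 OHC-like cells above 1 CPM, and at least 148-fold without cell 11. Pdzd7, an ankle-link scaffold, was at least 150-fold higher and was detected in 10 of 11. Grxcr1 (at least 65.9-fold) was detected in OHC-like cell 11 alone, at 312 CPM, and had no ratio without it. Xirp2 (at least 47.8-fold), an actin-binding protein of the bundle, was detected in 2 OHC-like cells and was at least 19.9-fold higher without cell 11. Eps8, an actin regulator of the tips, was 5.05-fold lower, a call that ended without WT_P60 SC 1 and came to 21.9-fold without OHC-like cell 1. In SCs failing to become HCs, 6 of the 20 were higher and 3 lower than in WT_P60 SCs. The shares over all tested genes were 18.0% and 10.5%. Espn was detected in 15 of 15 of these SCs, at a mean of 275 CPM against 726 CPM in OHC-like cells. Pdzd7 was detected in 8 of 15, at a mean of 84.8 CPM against 64.4 CPM in OHC-like cells. Without the highest of these SCs its mean was 31.8 CPM. Against WT_P30 OHCs, 8 of the 20 were lower and 2 higher in OHC-like cells, and 9 lower and 2 higher in nascent HCs, beside 13.3% and 22.1%, then 13.2% and 23.1%, of all tested genes. Among them Clrn2 was at least 354-fold and Clrn1 36.2-fold lower in OHC-like cells, both encoding clarins of the hair bundle, and Myo15, the myosin that carries cargo to stereocilia tips, was 122-fold lower, or 847-fold without cell 11, in which it was at 127 CPM. Clrn2 reached 5 CPM in WT_P30 OHCs only (mean 109 CPM), so the filter set the direction of its calls. This holds for its call in WT_P30 OHCs against WT_P60 SCs too. The median log2 ratio of the 20 genes in OHC-like cells was 4.48 against WT_P60 SCs and -1.48 against WT_P30 OHCs, beside 6.64 and -1.21 for the 8 members.

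Paralogs of the members stayed mostly low in OHC-like cells, apart from Cib1. Of 16 relatives of the TMC, LHFPL, CIB, PIEZO and PKHD1 families, 15 were matched by symbol and 8 reached 5 CPM in a group. In OHC-like cells against WT_P60 SCs, Lhfpl2 (at least 40.7-fold) and Lhfpl4 (at least 13.5-fold) were higher and Lhfp (at least 15.2-fold) was lower, against 18.7% and 14.4% of all tested genes. Lhfpl2 and Lhfpl4 were each detected in 4 of 11 OHC-like cells, and without the highest of these the ratios were no less than 22.0-fold and 5.55-fold. The Lhfp call rested on the 1 WT_P60 SC in which it was detected, at 74.9 CPM. Without OHC-like cell 4 the count of paralogs that were lower rose from 1 to 3. Tmc4, a relative of the pore subunits, was highest in WT_P60 SCs, at a mean of 97.4 CPM. Its mean was 36.4 CPM in OHC-like cells, 27.0 CPM in nascent HCs and 43.1 CPM in WT_P30 OHCs. In SCs failing to become HCs it was 27.3 CPM. Lhfpl2 had a mean of 53.5 CPM in nascent HCs, and 23.2 CPM without nascent HC 2. Cib1 was detected in 10 of 11 OHC-like cells (mean 126 CPM) and 15 of 16 nascent HCs (172 CPM). Its mean was 116 CPM in SCs failing to become HCs, 80.9 CPM in WT_P60 SCs and 36.5 CPM in WT_P30 OHCs.

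The genes whose levels ranked most alike over the 42 induced cells were sought for the 4 members detected in at least 14 of the 27 induced HCs, among 9403 genes with a mean of at least 10 CPM. Lhfpl5 was most like Spidr (Spearman 0.857) and Lhx3 (0.853), a homeobox factor of hair cells. Cib2 was most like Megf6 (0.833) and Calml4 (0.782), a light chain that binds Myo7b in brush borders. Cib3 was most like Sult4a1 (0.816) and Actn3 (0.809), and Tmie most like Mgat5b (0.739) and Dennd11 (0.701). These are the highest of many correlations and are given as a description.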

How the data were processed

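Single-cell RNA-Seq of 75 cells in 5 groups was analysed. The authors deposited raw counts of reads per gene for each cell, not normalized and not pooled. The submitters' processing notes name FastQC 0.11.9, Trimmomatic 0.39, HISAT2 2.1.0, StringTie 1.3.5 and HTSeq 0.10.0 and the build mm10. The annotation release and the use of strand are not given in the sources used here. A WPRE row (0.0254% of counts, no mouse gene) was left out.

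From the deposited counts, CPM on total gene counts was computed per cell (python 3.11.15, numpy 2.4.6, pandas 2.3.3, scipy 1.17.1, matplotlib 3.10.9). A group's level is the mean over cells, and a fold over 4 was called for genes with at least 5 CPM in a group. No 2 cells held identical counts. TMM (edgeR 4.0.16) and size factors (DESeq2 1.42.0, over 411 genes above 0 in every cell; R 4.3.3) gave alternative scalings only. The computation of ratios was tested on simulated data. Positions and exon lengths are from GENCODE M21 (GRCm38), promoters from RefSeq.

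The text names all 10 members. Of the 21 other transduction genes and 16 paralogs all were counted, and those past 4-fold in OHC-like cells against WT_P60 SCs were given, at most 6 per list by ratio. A further gene of the paralog list is not reported here. The genes low against WT_P30 OHCs, Tmc4 and Cib1 were chosen after their values were seen. The members and lists were chosen with earlier results of these data known.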

Additional observations from a re-analysis of the deposited data

How the results depend on the processing

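No paired analysis was possible because the results come from no test and cells with the same number share nothing but the number. No ratio of a member that passed 4-fold turned its direction under another scaling, a thinning of every cell to 4264780 counts, medians in place of means, summed counts, other filters or the omission of cells. No share of cells moved by more than its interval. TMM and the size factors of DESeq2 left the median log2 ratio of all tested genes at up to 0.65 (OHC-like cells against WT_P30 OHCs) and changed the count of members past 4-fold once: nascent HCs against SCs failing to become HCs had 4 with TMM, as Pkhd1l1 fell out. Counts of members moved by over 1.5 times, or gained a direction, as follows. With a limit of 2-fold, 8 were past it in WT_P30 OHCs against WT_P60 SCs, 5 in SCs failing to become HCs against WT_P60 SCs, 6 in nascent HCs against WT_P30 OHCs and 8 in OHC-like cells against SCs failing to become HCs. Without a filter on low counts, with all 10 members counted, 8 were past 4-fold in WT_P30 OHCs, 8 in OHC-like cells, 6 in nascent HCs and 3 in SCs failing to become HCs, each against WT_P60 SCs, 1 of each being Piezo2, lower through a single SC. With a limit of 8-fold, 1 was past it in SCs failing to become HCs against WT_P60 SCs, 1 in OHC-like cells against nascent HCs and 3 in nascent HCs against SCs failing to become HCs. With medians these 3 counts at 4-fold were 0, 2 (1 in each direction) and 5. Thinning gave 1 for OHC-like cells against nascent HCs and 4 for nascent HCs against SCs failing to become HCs, and only library runs with both groups gave 1 and 3. Without OHC-like cell 11, an alternative chosen after seeing the data, as were leaving out each cell in turn and the alternatives for single shares and the 21 other genes, 0 members were past 4-fold between OHC-like cells and nascent HCs, and Tmc1 against WT_P60 SCs or SCs failing to become HCs gave no value because the 0.400 CPM of the other OHC-like cells did not exceed the level of 3 counts per cell in those groups (0.430 and 0.406 CPM). Leaving out OHC-like cell 4 or the 3 induced cells with fewer than 5000 genes moved no count of members by over 1.5 times. The causes of these moves were not tested. Depth limits statements on single cells at 1 CPM, where a cell of the lowest total holds about 4 reads, and the number of cells limits shares of 0 to the bounds given.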

Other observations

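Pou4f3, the POU-domain factor that maintains hair cells, was detected in 17 of 17 WT_P30 OHCs (median 753 CPM) but in only 3 of the 27 induced HCs, a gene singled out after its values were seen. These were OHC-like cell 11 at 736 CPM, nascent HC 2 at 584 CPM and nascent HC 11 at 1.20 CPM. The other pan-HC markers (Myo7a, Myo6, Gfi1, Calb1, Pvalb and Rbm24) were each detected in 7 to 11 of 11 OHC-like cells. In nascent HCs they were each detected in 7 to 16 of 16 cells. Of these, Myo7a had defined the groups, and Myo6 was also detected in 16 of 16 WT_P60 SCs. OHC-like cell 11 and nascent HC 2 were also the cells with the highest Tomt of their groups (125 and 55.1 CPM, against 15.5 CPM or less in the other 25 induced HCs) and the highest Lhfpl5 (5242 and 4593 CPM). Tmc1 was at 447 CPM in the former and at 0 in the latter. Both belonged to library run E, and their Atoh1 was 3881 and 4716 CPM, within the range of the other OHC-like cells (769 to 10260 CPM). OHC-like cell 2, the other cell with Tmc1, had no Pou4f3 at 1 CPM.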
